A study of Mus musculus with 6 samples.

Results

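The genes described here were silent or low in 4 of 6 mouse leukaemia cell lines and expressed in the line KO2. RNA sequencing had been done on 6 lines that carry BCR-ABL, the fusion kinase of Philadelphia chromosome leukaemia. The 3 KO lines (KO1, KO2 and KO3) had received a Cas9 plasmid with guides against the cyclin-dependent kinase gene Cdk6, and the 3 WT lines (WT1, WT2 and WT3) a control Cas9 plasmid. All were grown as clones of single sorted GFP-positive cells in the same medium, so each line is 1 clone, and per the labels loss of the kinase in KO had been checked by Western blot. The labels do not say whether the clones share a parental culture. The genes were chosen by their measured levels: a gene was taken if it had at least 5 CPM in KO2 (CPM being the read count divided by the library total and scaled to 1000000) and at least 20 times the highest CPM among KO1, KO3, WT1 and WT3. Symbols starting with Slc, Zfp or H2- were left out. This gave 112 genes of 25965 in the table, or 1.22% of the 9152 with 5 CPM in KO2. The level in KO2 and in those 4 libraries is thus what chose the genes, and it is given as a description without a test. WT2 was not part of the rule, and in WT2 most of these genes were not silent: if WT2 must be low as well, 6 of the 112 remain.

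Cloned lines of one tumour can differ in which tissue-restricted genes they transcribe. Such genes are held off in most cells by the lack of their activators, by repressors or by DNA methylation and closed chromatin, and a clone that has opened one passes this on to its daughters. Precursor B cells, the cells that BCR-ABL commonly transforms in mice, keep most genes of other organs and of later B cell stages off.

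Sequence windows at a listed start of 4 of the genes ran from poor to rich in CpG, the dinucleotide at which vertebrate DNA is methylated. They are those of Col27a1, the gene with the highest level in KO2, Tbx19, the transcription factor gene with the highest level, Plscr4, which lies beside another gene of the set, and Tcf7, of the WNT pathway. Each runs from 250 bases before to 50 after 1 start per gene, the first in the promoter table used (RefSeq, build GRCm38.p6), 5′ to 3′ of the gene, with every CpG in capitals. That start need not be the outermost one: it lies 1403 bases inside the annotated span of Col27a1 and 369 bases inside that of Tcf7. These windows thus hold transcribed sequence of longer transcripts, and their CpG need not be those of a promoter.
Col27a1, chr4:63215162-63215461, plus strand: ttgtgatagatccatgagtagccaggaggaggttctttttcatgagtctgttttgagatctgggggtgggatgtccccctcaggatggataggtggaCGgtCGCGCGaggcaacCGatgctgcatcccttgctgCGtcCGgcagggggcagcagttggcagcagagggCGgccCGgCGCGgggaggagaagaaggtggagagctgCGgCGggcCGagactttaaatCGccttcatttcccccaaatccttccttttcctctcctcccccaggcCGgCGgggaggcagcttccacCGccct
Tbx19, chr1:165160724-165161023, minus strand: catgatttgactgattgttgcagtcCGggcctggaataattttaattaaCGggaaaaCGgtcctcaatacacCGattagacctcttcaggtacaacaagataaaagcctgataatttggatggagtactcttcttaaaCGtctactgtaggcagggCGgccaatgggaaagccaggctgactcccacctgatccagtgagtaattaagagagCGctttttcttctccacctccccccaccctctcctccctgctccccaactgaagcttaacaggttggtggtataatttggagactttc
Plscr4, chr9:92457128-92457427, plus strand: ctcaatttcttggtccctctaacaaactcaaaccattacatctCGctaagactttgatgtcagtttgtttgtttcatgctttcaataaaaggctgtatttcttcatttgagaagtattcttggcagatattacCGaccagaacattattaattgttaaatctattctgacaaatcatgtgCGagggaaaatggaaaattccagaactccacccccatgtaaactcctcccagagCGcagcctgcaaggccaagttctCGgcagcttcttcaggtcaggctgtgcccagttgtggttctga
Tcf7, chr11:52282965-52283264, minus strand: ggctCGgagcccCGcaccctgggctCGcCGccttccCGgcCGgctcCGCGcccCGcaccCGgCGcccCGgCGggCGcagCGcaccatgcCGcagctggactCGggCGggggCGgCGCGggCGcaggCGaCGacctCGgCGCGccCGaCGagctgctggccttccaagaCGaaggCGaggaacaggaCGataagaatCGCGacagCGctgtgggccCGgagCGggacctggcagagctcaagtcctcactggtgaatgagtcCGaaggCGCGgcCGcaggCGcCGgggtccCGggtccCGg
The Tcf7 window held 45 CpG and that of Col27a1 18, against 7 in that of Tbx19 and 5 in that of Plscr4. Of the 112 genes 85 were matched in that table, and for 32 of the 85 the start lay over 100 bases inside the gene's span. For Fry it lay 141312 bases inside and for Itga9 104983, so not all windows are promoters of the whole gene. Such starts were not counted among the other genes. The median ratio of observed to expected CpG in the 85 windows was 0.69, and 54 of 85 (63.5%) reached 0.6. Among 6587 other genes with 5 CPM in KO2 the median was 0.80 and 79.4% reached 0.6, and among all 27025 promoters the median was 0.39 and 36.5% reached it. The TATA motif TATAAA, sought on both strands, was in 3 of the 85 windows (3.5%), in 5.9% of those of the other genes and in 14.2% of all.

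Library totals ran from 17859519 counts in KO1 to 24108563 in WT1, so 3 counts correspond to 0.124 to 0.168 CPM, taken as the floor for reading low values. Cdk6 itself had 42.1, 72.6 and 40.4 CPM in lines KO1, KO2 and KO3, and 39.4, 45.0 and 55.8 CPM in lines WT1, WT2 and WT3. Its RNA was thus not lower in KO, and whole-gene counts do not show a small deletion: KO and WT name the libraries as labelled. KO2 and WT2 both stand apart from the other 4 libraries in the genes below. Of 25 B lineage marker genes with a row, 23 reached 5 CPM in KO2 and in WT2 and 22 in each of the other 4. Their summed level was 6781 CPM in KO2, 7818 and 6903 CPM in KO1 and KO3, and between 6614 and 7387 CPM in WT. Single markers differed in KO2 in both directions, which the sum does not show. Igll1 and Bank1 were at 629.6 and 52.5 CPM in KO2, against at least 1132 and 172.0 CPM in each other library. Cd72 and Vpreb2 were at 146.0 and 244.9 CPM in KO2, against at most 63.8 and 163.8 CPM elsewhere. Ms4a1, which encodes the mature B cell antigen CD20, was at 0 in all 6 libraries.

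The 112 genes ran from 5.20 CPM (Dpysl5 and Cuedc1) to 261.3 CPM (Col27a1) in KO2, with a median of 23.7. In KO2 19 genes had 100 CPM or more, 70 had 10 to 100 CPM and 23 had less. The 20 highest held 54.3% of the summed 5486 CPM. In KO1 and KO3 the same genes summed to 29.4 and 27.9 CPM, and in WT1, WT2 and WT3 to 79.3, 1282 and 64.7 CPM. No read was counted in any of KO1, KO3, WT1 and WT3 for 16 genes, such as Lpar1, Xk and Prdm1. Against the floor of 3 counts per library these were at least 31.0-fold (Dpysl5) to at least 179.4-fold (1110012J17Rik, now Mtcl1) higher in KO2. For the 73 genes with more than 3 counts in 1 of the 4 libraries, KO2 lay 20.1 to 289.1 times above the highest of them, with a median of 49.1. The other 23 genes had 1 to 3 counts there, too few for a ratio to be read. Counting error alone, as an exact Poisson 95% interval, puts Col27a1 in KO2 between 254.3 and 268.4 CPM and Dpysl5 between 4.26 and 6.30 CPM. It says nothing of the spread between cultures, which 1 library cannot give, and reads are not separate molecules.

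**Figure D1:**
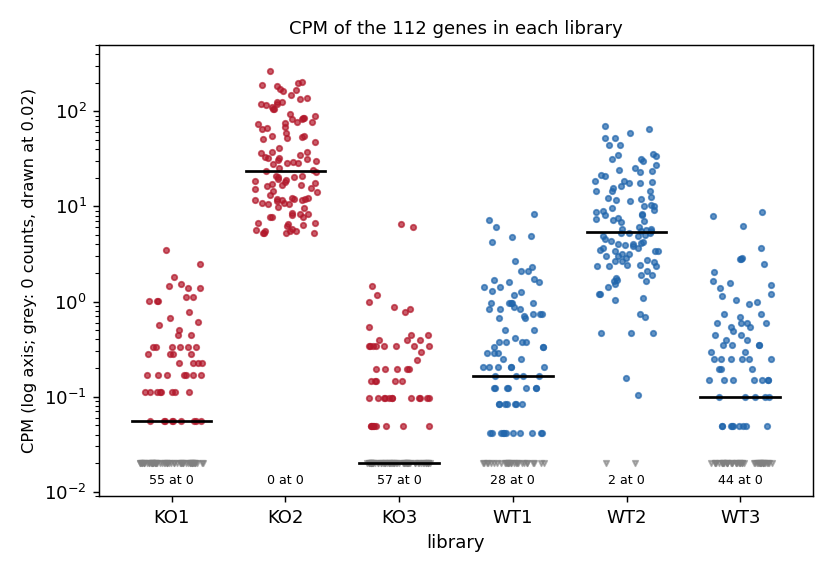
CPM of each of the 112 genes (points, log axis) in the KO libraries (red) and the WT libraries (blue), with the median as a line. Genes with 0 counts are drawn in grey at 0.02 and counted below; the median is 23.7 CPM in KO2, 5.38 CPM in WT2 and at most 0.166 CPM in the other 4 libraries.

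Genes of the extracellular matrix and of cell adhesion formed a group of 12 with levels from 5.30 to 261.3 CPM in KO2. Col27a1, a fibrillar collagen of cartilage (chromosome 4, 63214009 to 63334991, GRCm38), had 0.056, 261.3 and 0.147 CPM in lines KO1, KO2 and KO3 and 2.12, 64.8 and 1.63 CPM in lines WT1, WT2 and WT3. Nid2, which encodes the basement membrane protein nidogen 2, had 0.112, 183.2 and 0.343 CPM in lines KO1, KO2 and KO3 and 4.19, 52.7 and 0.445 CPM in lines WT1, WT2 and WT3. For both genes KO2 was the highest library and WT2 the second, with the other 4 far below. Pcdh9, a protocadherin, was less fully silent elsewhere: it had 1.40, 190.2 and 0.343 CPM in lines KO1, KO2 and KO3 and 8.38, 35.2 and 8.79 CPM in lines WT1, WT2 and WT3. Its WT1 and WT3 levels were well above the floor and above both KO1 and KO3. Pear1, an EGF-repeat receptor known from platelets (88.8 CPM in KO2), Ctnnd1, the p120 catenin that holds cadherins at the surface (75.9 CPM), and Celsr1, an atypical cadherin of planar cell polarity (67.4 CPM), followed. The integrin chains Itga1 and Itga9 were at 23.1 and 8.33 CPM in KO2, the second protocadherin Pcdh11x at 14.5 CPM and the nectin gene Pvrl1 (now Nectin1) at 10.8 CPM. The protease gene Adam19 was at 10.5 CPM and Tgm2, a protein cross-linking enzyme, at 5.30 CPM. WT2 held a median of 26.3% of the KO2 level over this group. From a list of 30 other matrix genes, such as fibronectin and the collagens of connective tissue, none is in the set, and 2 reached 5 CPM in KO2 as in each other library.

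**Figure D2:**
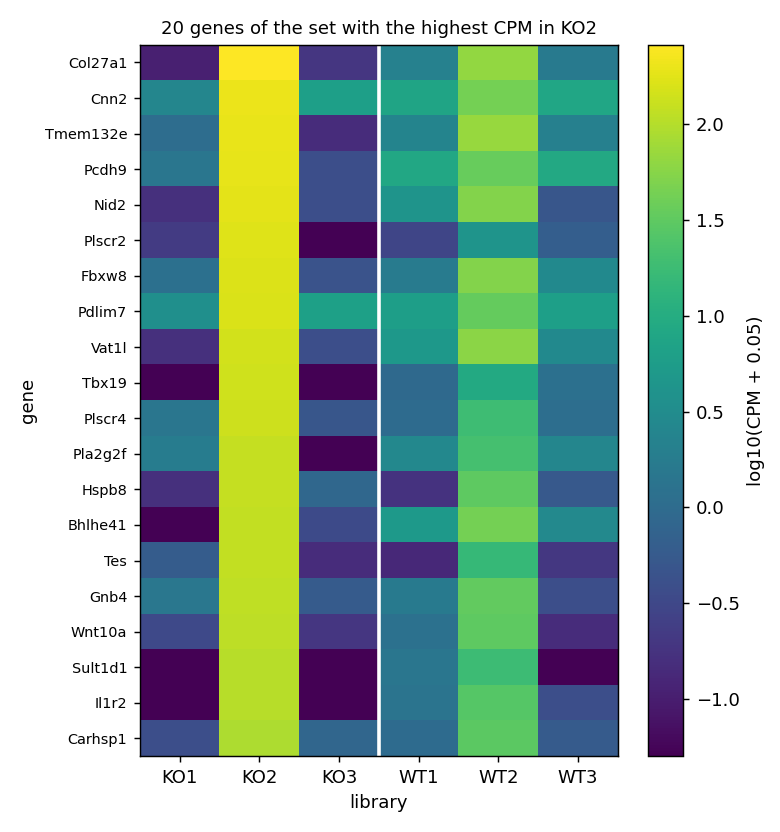
Levels of the 20 genes of the set with the highest CPM in KO2 (rows) in the 6 libraries (columns, KO left of the white line and WT right of it), coloured by log10(CPM + 0.05). KO2 is brightest in every row and WT2 second; Plscr2 and Tbx19 are the dimmest in WT2, at 4.20 and 9.08 CPM.

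Cytoskeletal genes made up another 12, from 5.20 to 202.3 CPM in KO2. Cnn2, an actin-binding calponin, had 2.46, 202.3 and 6.12 CPM in lines KO1, KO2 and KO3 and 7.26, 44.3 and 7.86 CPM in lines WT1, WT2 and WT3. Pdlim7, a PDZ and LIM domain scaffold on actin, had 3.47, 162.9 and 6.47 CPM in lines KO1, KO2 and KO3 and 6.06, 34.6 and 6.22 CPM in lines WT1, WT2 and WT3. These 2 genes were expressed in all 6 libraries, so the word silent applies to neither. Tes, a LIM protein of focal adhesions, was close to silent outside KO2 and WT2, with 0.560, 119.9 and 0.098 CPM in lines KO1, KO2 and KO3 and 0.083, 15.7 and 0.148 CPM in lines WT1, WT2 and WT3. Frmd5, of the FERM family, was at 52.0 CPM in KO2. The microtubule-binding Mtap6 (now Map6) and 1110012J17Rik were at 41.1 and 30.1 CPM, the kinesin gene Kif13a at 32.3 CPM and the dynein light chain gene Dynlt3 at 24.0 CPM. Ank3, an ankyrin that anchors membrane proteins to spectrin, was at 18.2 CPM, Rhobtb1 at 12.2 CPM, Fry at 11.7 CPM and Dpysl5, of the collapsin response mediator family in growing axons, at 5.20 CPM. Of these, Dpysl5 had 0 counts in WT2 and Ank3 was at 1.05 CPM there, while the other 10 lay between 1.78 and 44.3 CPM.

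Of the set, 4 genes belong to the WNT pathway, in which secreted WNT proteins bind Frizzled receptors and act through beta-catenin and TCF factors. The ligand gene Wnt10a had 0.280, 111.0 and 0.147 CPM in lines KO1, KO2 and KO3 and 1.16, 31.6 and 0.099 CPM in lines WT1, WT2 and WT3. Lgr5, a receptor for R-spondins that marks intestinal stem cells, had 0.224, 54.5 and 0 CPM in lines KO1, KO2 and KO3 and 0.498, 9.60 and 0.741 CPM in lines WT1, WT2 and WT3. The receptor gene Fzd6 had 0, 34.7 and 0.049 CPM in lines KO1, KO2 and KO3 and 0, 5.82 and 0 CPM in lines WT1, WT2 and WT3. In each of them KO2 exceeded WT2, and WT2 exceeded the other 4 libraries. Tcf7, a TCF factor best known from T cells, is counted with the transcription factors. Of 36 T and NK cell markers it was the only one in the set, and 20 of the 36 were at 0 in KO2, among them Cd3e and Bcl11b. Other markers of that list differed in both directions. Lck was at 0.397 CPM in KO2, against at least 48.1 CPM in each other library, and Klrb1c at 77.8 CPM, against at most 26.1 CPM. Tcf7 had 0, 28.8 and 0.049 CPM in lines KO1, KO2 and KO3 and 0.830, 4.88 and 0.593 CPM in lines WT1, WT2 and WT3. Its annotated span overlaps that of Skp1a, and with the strand setting of the counting not given the reads of such a pair cannot be told apart. Of a list of 50 WNT, Hedgehog and Notch genes 9 reached 5 CPM in KO2, and 4 of those are in the set. Axin2, a feedback inhibitor induced by beta-catenin in many tissues, had 0.050 CPM in KO2, 0 in KO1 and KO3 and 0, 1.26 and 0 CPM in WT1, WT2 and WT3. Lef1, the TCF relative of early B cells, had 140.4, 170.9 and 108.6 CPM in lines KO1, KO2 and KO3 and 40.2, 78.0 and 89.1 CPM in lines WT1, WT2 and WT3. Dkk3, a secreted Dickkopf family protein that was not on that list, was at 76.6 CPM in KO2.

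Genes for ligands and receptors numbered 16, the 3 WNT pathway genes Wnt10a, Lgr5 and Fzd6 among them. Il1r2, the decoy receptor for interleukin 1, had 0, 104.9 and 0 CPM in lines KO1, KO2 and KO3 and 1.29, 26.9 and 0.346 CPM in lines WT1, WT2 and WT3. Fcgr3, an activating Fc receptor of myeloid and NK cells, had 1.01, 85.5 and 0.343 CPM in lines KO1, KO2 and KO3 and 1.24, 12.01 and 0.346 CPM in lines WT1, WT2 and WT3. Fcgr2b, the inhibitory Fc receptor of B cells, was in contrast expressed throughout, with 81.1, 115.1 and 70.0 CPM in lines KO1, KO2 and KO3 and 84.7, 100.0 and 73.6 CPM in lines WT1, WT2 and WT3. Fcgr3 was the single member of the 22 monocyte and macrophage markers in the set. Without Fcgr3, which the rule chose, that list summed to 288.8 CPM in KO2, 242.9 and 233.2 CPM in KO1 and KO3 and between 203.7 and 244.9 CPM in WT, and 13 of the 22 were at 0 in KO2, among them Csf1r. The checkpoint gene 4632428N05Rik (now Vsir) was at 37.5 CPM in KO2, Tnfrsf11a, the receptor for RANK ligand, at 7.73 CPM and Il6st, the signal-transducing chain of interleukin 6 family receptors, at 6.34 CPM. Axon guidance and synapse genes were Sema3g (83.3 CPM in KO2), Rtn4rl2, a Nogo receptor relative (73.6 CPM), Lrrtm2 (16.9 CPM) and the ephrin receptor gene Epha5. Epha5 had 0.112, 8.13 and 0 CPM in lines KO1, KO2 and KO3 and 0.083, 0.735 and 0 CPM in lines WT1, WT2 and WT3, and of 47 receptor tyrosine kinase genes it was the only one in the set. Lpar1, a receptor for lysophosphatidic acid, was at 20.5 CPM and Lrig3 at 10.9 CPM in KO2. Prl2c5, of the prolactin family of the placenta, was at 15.4 CPM in KO2. Its near-copies Prl2c2 and Prl2c3 were at 0 and 0.099 CPM there, so the share of each copy in those reads is uncertain.

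Transcription factor genes numbered 13. Tbx19, the T-box factor of pituitary corticotrophs, had 0, 138.8 and 0 CPM in lines KO1, KO2 and KO3 and 0.871, 9.08 and 1.14 CPM in lines WT1, WT2 and WT3. Bhlhe41, a repressor of the circadian clock that is also used in B-1a cells, had 0, 120.0 and 0.294 CPM in lines KO1, KO2 and KO3 and 4.85, 43.8 and 2.77 CPM in lines WT1, WT2 and WT3. In both genes the WT1 and WT3 levels were above KO1 and KO3, though far below KO2. Sox6, of the SRY-box family in cartilage and red cell precursors, was at 77.8 CPM in KO2 and at 5.61 CPM in WT2. E2f6, a repressor E2F, was at 27.9 CPM in KO2, Hopx, an atypical homeodomain protein, at 25.1 CPM and the orphan nuclear receptor gene Nr2f1 at 12.3 CPM. Lower still were Zbtb10 (11.9 CPM), Pou4f1 of sensory neurons (8.53 CPM), Setbp1 (8.28 CPM), the Myc relative Bmyc (7.68 CPM) and Nr3c2, the mineralocorticoid receptor (5.30 CPM). Prdm1, which directs plasma cell differentiation, had 0, 5.50 and 0 CPM in lines KO1, KO2 and KO3 and 0, 2.73 and 0 CPM in lines WT1, WT2 and WT3. Of 8 plasma cell markers it was the only one in the set. Of the other 7, 5 reached 5 CPM in KO2, against 4 in each of KO1 and KO3 and 4, 5 and 4 in WT1, WT2 and WT3, and Tnfrsf17 was at 0 in all 6 libraries. Xbp1 and Igj were highest in KO2, at 273.7 and 13.1 CPM, against at most 102.0 and 5.04 CPM in any other library. Sdc1 was lowest in KO2, at 42.3 CPM, and Irf4, Derl3 and 2010001M09Rik lay within the range of the other libraries.

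Genes for proteins that act on nucleic acids included Carhsp1, Tdrd7 and Gtpbp10. Carhsp1, a cold-shock domain protein, had 0.336, 92.6 and 0.784 CPM in lines KO1, KO2 and KO3 and 0.954, 30.0 and 0.543 CPM in lines WT1, WT2 and WT3. Tdrd7, a Tudor domain protein of RNA granules, and Gtpbp10, of mitochondrial ribosome assembly, were at 19.4 and 9.81 CPM in KO2.

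Lipid enzymes and membrane lipid proteins included a pair of neighbours, Plscr2 and Plscr4, which encode relatives of the phospholipid scramblases. They lie on chromosome 9 at 92275602 to 92297752 and at 92457372 to 92493513. Plscr2 had 0.168, 171.4 and 0 CPM in lines KO1, KO2 and KO3 and 0.249, 4.20 and 0.593 CPM in lines WT1, WT2 and WT3. Plscr4 had 1.40, 135.5 and 0.441 CPM in lines KO1, KO2 and KO3 and 0.954, 18.4 and 1.04 CPM in lines WT1, WT2 and WT3. WT2 thus held 2.4% of the KO2 level of Plscr2 and 13.6% of that of Plscr4. The family member Plscr1 had 1.34, 0.843 and 0.245 CPM in lines KO1, KO2 and KO3 and 0.830, 8.97 and 1.14 CPM in lines WT1, WT2 and WT3, highest in WT2. Pla2g2f, a secreted phospholipase, had 1.79, 125.0 and 0 CPM in lines KO1, KO2 and KO3 and 2.70, 20.9 and 2.47 CPM in lines WT1, WT2 and WT3. St3gal5, the synthase of the ganglioside GM3, was at 31.4 CPM in KO2. The kinase gene Pip5k1b was at 14.3 CPM, Faah, which breaks down anandamide, at 11.4 CPM, Mtmr10 at 6.69 CPM and Cyp39a1, an oxysterol hydroxylase, at 5.45 CPM.

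Of 6 other enzymes the highest was Sult1d1, a sulfotransferase, with 0, 105.6 and 0 CPM in lines KO1, KO2 and KO3 and 1.41, 17.6 and 0 CPM in lines WT1, WT2 and WT3. The protease genes Amz1 and Cpm were at 67.1 and 55.1 CPM in KO2, the acid phosphatase gene Acpp at 47.9 CPM, the chondroitin sulfotransferase gene Chst11 at 17.5 CPM and the guanine deaminase gene Gda at 6.20 CPM. Among genes of protein turnover and folding, Fbxw8, a substrate receptor of cullin ubiquitin ligases, had 1.12, 166.2 and 0.392 CPM in lines KO1, KO2 and KO3 and 1.70, 52.5 and 2.87 CPM in lines WT1, WT2 and WT3. Hspb8, a small heat shock protein, had 0.112, 123.5 and 0.833 CPM in lines KO1, KO2 and KO3 and 0.124, 31.5 and 0.494 CPM in lines WT1, WT2 and WT3. Rnf125 and Klhl32 were at 17.1 and 5.50 CPM in KO2. The group thus again had KO2 highest and WT2 second.

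Signalling genes of the cell interior numbered 12. Gnb4, a G protein beta subunit, had 1.46, 116.7 and 0.539 CPM in lines KO1, KO2 and KO3 and 1.62, 33.7 and 0.346 CPM in lines WT1, WT2 and WT3. Immune signalling was represented by the adaptor gene Lat2 (53.4 CPM in KO2), the tyrosine kinase gene Fes (20.6 CPM), Tirap, an adaptor of Toll-like receptors (16.95 CPM), and Alpk1, a kinase that senses bacterial sugars (6.59 CPM). The others were Srgap3 (51.1 CPM), Rassf4 (37.2 CPM), the kinase gene Nuak1 (31.8 CPM), Mpp2 (20.2 CPM), the exchange factor gene Rapgef3 (9.71 CPM), Guca1a (5.80 CPM) and Appl2 (5.65 CPM). Membrane traffic genes were Sec24d, of the COPII coat (36.5 CPM in KO2), Dmxl2 (28.3 CPM), the small GTPase genes Rab23, Rabl2 and Rab32 (13.2, 11.9 and 11.7 CPM) and Pclo, of the presynaptic zone (6.69 CPM). The channel gene Kcnk6 was at 11.8 CPM, Clic5 at 28.9 CPM and the X-linked Xk, of the Kell blood group complex, at 23.4 CPM. These 21 genes were at or below 1.62 CPM in KO1, KO3, WT1 and WT3.

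For 16 genes no role is given here. Tmem132e, a membrane protein, had 1.01, 198.8 and 0.098 CPM in lines KO1, KO2 and KO3 and 2.32, 70.3 and 2.03 CPM in lines WT1, WT2 and WT3. Vat1l had 0.112, 146.7 and 0.343 CPM in lines KO1, KO2 and KO3 and 4.73, 58.9 and 2.82 CPM in lines WT1, WT2 and WT3. They hold 2 of the 3 highest WT2 levels in the set. Ngfrap1 (now Bex3), X-linked, had 0.224, 33.1 and 0 CPM in lines KO1, KO2 and KO3 and 0.041, 12.2 and 0 CPM in lines WT1, WT2 and WT3. It was the single gene in the set from 30 X-linked tumour antigen and placental genes. The others ran from 5.20 CPM (Cuedc1) to 83.6 CPM (Oaf) in KO2 and take in Ogfrl1, Serinc5, Tmem121, Fndc3b and the long non-coding RNA C130071C03Rik. The last 6 are the uncharacterised 6030408B16Rik (now Smim41), Gm2016, 0610040J01Rik, 2610524H06Rik, BC005561 and AC165433.1.

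**Figure D3:**
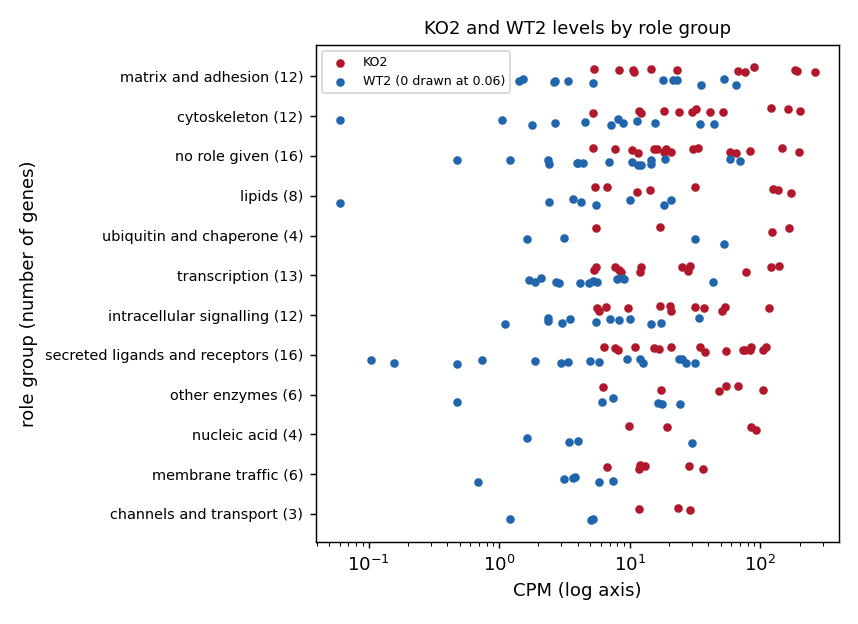
Level of each gene in KO2 (red, upper points of each row) and WT2 (blue, lower points; 0 counts drawn at 0.06) by role group, CPM on a log axis, with the number of genes in brackets. The lowest gene of a group has 5.20 to 11.8 CPM in KO2, and the WT2 points lie to the left, with group medians of 15.5% (secreted ligands and receptors) to 31.3% (transcription) of the KO2 level.

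The roles were assigned after the levels had been seen, from general knowledge, and serve to order the text. Of the gene lists looked up, 6 had any gene in the set and the other 18 had 0, among them the lists of Hox, germline, imprinted, interferon-stimulated and cytokine genes. None of the listed markers of fibroblasts, endothelium, epithelium, muscle, liver, neurons or granulocytes was in the set. The 12 muscle markers nevertheless summed to 79.3 CPM in KO2, to 2.58 and 6.17 CPM in KO1 and KO3 and to 9.66, 76.3 and 9.19 CPM in WT1, WT2 and WT3. This rested on Myl4 and Tnnt2, and 7 of the 12 were at 0 in KO2. Among the 20 neural and glial markers, 12 were at 0 in KO2. Tubb3 of that list had 5.15, 45.5 and 5.68 CPM in lines KO1, KO2 and KO3 and 7.51, 33.7 and 6.03 CPM in lines WT1, WT2 and WT3. The part of such cells in the levels above was not tested, and in bulk RNA fewer expressing cells and less RNA per cell cannot be told apart.

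WT2, the library that the rule left out, was the nearest to KO2 in these genes. It lay above all of KO1, KO3, WT1 and WT3 in 109 of the 112. Of the 9152 genes with 5 CPM in KO2, 25.2% did so, and of the 10896 genes of the KO against WT test 22.9%. The rule kept those 4 libraries low, which makes it easier for WT2 to lie above them, so the excess over these shares is not a test. WT2 was at 5 CPM or more in 60 of the genes and at 1 CPM or more in 103. KO1 and KO3 were at 1 CPM or more in 12 and 4 of the genes, and WT1 and WT3 in 19 and 16.

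Every one of the 112 genes was lower in WT2 than in KO2. As a share of the KO2 level the WT2 level had a median of 24.5%, with quartiles of 16.6% and 32.1%, and 93 of the genes lay between 10% and 50%. Whether the WT2 and KO2 libraries share cells, RNA or origin was not tested, and the labels do not say. The WT2 levels are therefore those of the library as labelled. The median was 24.2% in the 56 genes highest in KO2 and 24.5% in the 56 lowest. It was 6030408B16Rik, Bmyc and Appl2 that exceeded 50%, at 61.0%, 54.0% and 53.9%. Another 16 lay under 10%. The highly expressed ones among them included Plscr2 (2.4%), Tbx19 (6.5%) and Sox6 (7.2%). Prl2c5 (1.0%) and Tnfrsf11a (1.4%) were at or below 3 counts in WT2, and Cyp39a1 and Dpysl5 had 0. The 6 genes that remain when WT2 must also be low by 20-fold include Plscr2, Prl2c5, Tnfrsf11a, Cyp39a1 and Dpysl5. Being 20-fold lower is not being absent: Plscr2 still had 4.20 CPM in WT2.

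**Figure D4:**
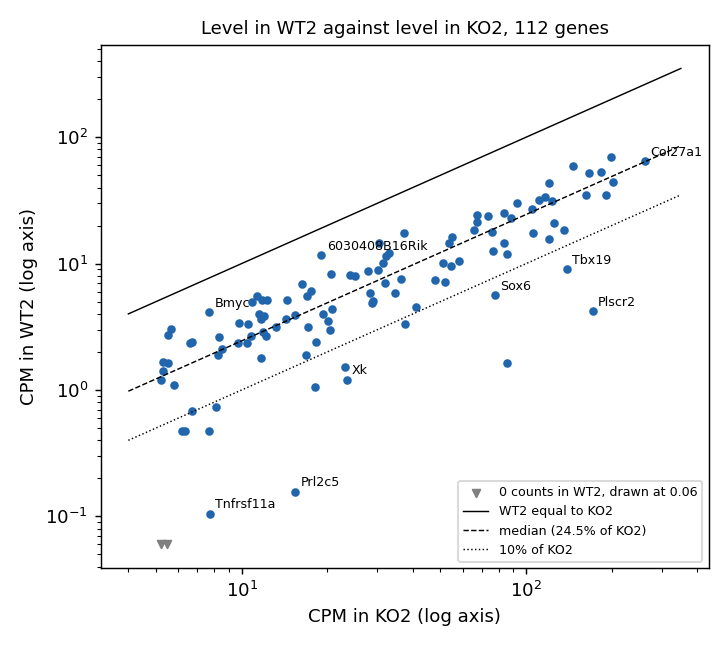
CPM in WT2 against CPM in KO2 for the 112 genes, both on log axes. The points follow the dashed line at the median of 24.5% of the KO2 level, all lie below the line of equality, and 16 lie under the dotted line at 10%, among them Plscr2, Tbx19 and Sox6.

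The 20-fold rule was also applied to each other library in turn, with the same symbols left out. KO1, WT1 and WT3, each against the other 3 of the 4 libraries and KO2, gave 0 genes, and KO3 gave 2 (Kif17 and Nr4a1). WT2 against KO1, KO3, WT1 and WT3 gave 35 genes. Of these, Ninl, Cox4i2, Gng12 and Aldh1a7 are not in the set. Both choices set a library against the same 4 low ones, so the genes they share are not read as a result. By the mirrored rule, with the same symbols left out, at least 5 CPM in each of KO1, KO3, WT1 and WT3 and KO2 at least 20 times lower than the lowest of them, 122 genes were near-silent in KO2. In those, WT2 had a median of 64.0% of the median of the 4 libraries, with quartiles of 54.0% and 74.96%.

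In these genes, whose levels there the rule had capped, the 4 low libraries also differed from each other. As a share of KO2 the median over the 112 genes was 0.041% in KO1 and 0 in KO3, against 0.818% in WT1 and 0.305% in WT3. No counts were found for 55 of the genes in KO1, 57 in KO3, 28 in WT1 and 44 in WT3. Such numbers also depend on the library totals, lowest in KO1 and highest in WT1, and no share over all genes was taken. WT1 and WT3 both lay above KO1 and KO3 in 31 of the 112 genes, and KO1 and KO3 both above WT1 and WT3 in 2 of the 112. Of the 9152 genes with 5 CPM in KO2, 22.1% showed the first order and 33.2% the second. Because the rule used these libraries no test was made of it, and many of the values are of a few counts.

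The KO against WT comparison of the design was fitted over all genes by edgeR's quasi-likelihood test. Of the 112 genes 42 passed its filter on low counts and 0 were called at an adjusted p under 0.05, against 0.0% of the 10896 genes tested. At an unadjusted p under 0.05 there were 0 of the 42 and 1030 of all genes. DESeq2 called 218 genes and none of the 112, but it gave an adjusted p to only 1 of them, and 0.705% of its 11212 genes were called higher in KO. Without WT2 and KO2, an alternative chosen after seeing the data, DESeq2 called 1.72% of 11752 genes lower in KO1 and KO3 than in WT1 and WT3, and 5 of the 51 genes of the set that it tested (Tbx19, Col27a1, Bhlhe41, Vat1l and Pcdh9); edgeR called 0 there. In 0 of the 112 did all KO libraries lie above all WT libraries, against 10.6% of all genes tested. The levels in KO2, KO1, KO3, WT1 and WT3 chose the genes, so nothing is read from these counts.

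Positions were found for 110 of the 112 genes in the RefSeq tables of GRCm38, 6 of them through an older symbol; BC005561 and AC165433.1 were not placed. Of the placed genes 109 are protein-coding. The genes were spread over 20 chromosomes. Chromosome 5 held 13 of 110 (11.8%, against 6.6% of the placed genes with 5 CPM in KO2), chromosome 10 held 12 (10.9% against 4.8%) and chromosome 13 held 8 (7.3% against 3.5%). Fewer were on chromosome 8 with 2 (1.8% against 5.6%), chromosome 11 with 5 (4.5% against 8.6%) and chromosome 2 with 5 (4.5% against 8.2%). A gene of the set had another within 1 Mb in 15 cases, or 13.6%, and 13.1% of the other expressed genes also lay that close to 1 of the set. Proximity was therefore near its background. The neighbours were Plscr2 with Plscr4, Ctnnd1 with Rtn4rl2, Ank3 with Rhobtb1, Xk with Dynlt3, Oaf with Pvrl1, Clic5 with Cyp39a1, and Chst11, Appl2 and Nuak1.

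The level of the surrounding genes was measured over genes within 5 Mb that are not in the set, as the median log2 difference between KO2 and the average of the 4 low libraries. It could be had for 101 of the genes and was raised by at least 0.3 around 7 (6.9%, against 3.3% of 8750 other genes). They included Srgap3 (0.65) and Rassf4 (0.63) on chromosome 6 and Il6st (0.61), Serinc5 (0.53), Itga1 (0.51) and Nr2f1 (0.38) on chromosome 13. Around 5 genes (5.0%, against 4.6%) the surroundings were lower. These were Kif13a (-0.98) and Pdlim7 (-0.31) on chromosome 13 and Rnf125 (-0.71), Setbp1 (-0.64) and Lrrtm2 (-0.60) on chromosome 18. Windows of nearby genes overlap, as those of Kif13a and Pdlim7 do, so the 7 and the 5 are not all separate neighbourhoods. The median around the set was -0.08, as it was around the other genes. In WT2 the same measure ran from -0.15 to 0.07 around the 7 raised ones and from -0.31 (Kif13a) to -0.07 (Pdlim7) around the 5 lowered ones. Whether these shifts bear on the levels of the set was not tested. Besides Tcf7, 7 genes overlap the annotated span of another gene with 5 CPM in KO2, namely Nid2, Gnb4, Itga1, Lrrtm2, 0610040J01Rik, Pip5k1b and Cuedc1, and their counts carry the same doubt about strand.

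Just inside the 20-fold limit were Zbtb10 (20.07-fold over the highest of the 4 libraries), Itga9 (20.08), Appl2 (20.2), Ctnnd1 (20.8) and Pcdh9 (21.6). Just outside it were Gp9 (18.18), Jmjd8 (18.18), Syn1 (18.06), Ninl (17.1) and Rbp2 (16.6). Gp9 was at 7.19 CPM in KO2 and 1.63 CPM in WT2, and Ninl at 7.58 CPM in KO2 and 10.3 CPM in WT2, the one of these 10 that was higher in WT2.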

How the data were processed

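The deposited table held raw counts per gene symbol, 1 column per library, made by the authors with no normalization. Tools named in the submitters' processing notes are Trim Galore, STAR and DESeq2, with the build GRCm38. Their versions, how reads were counted, and with which annotation and strand, were not stated in the labels or file headers. Library totals were 17859519, 20175564 and 20415572 counts in KO1, KO2 and KO3 and 24108563, 19060127 and 20241765 in WT1, WT2 and WT3.

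CPM were computed from these totals. The genes, lists and roles were chosen with earlier results of these data known. Every gene of the set could be named, but not all are reported here. Values in all 6 libraries were given for the 20 highest in KO2, the 6 highest in WT2 and up to 4 per list, and for Plscr1, Fcgr2b, Axin2 and Lef1 after their values had been seen.

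KO and WT were compared with edgeR 4.0.16 in R 4.3.3: TMM scaling, filterByExpr, a robust quasi-likelihood F test, two-sided, with Benjamini-Hochberg adjustment over all genes. The test was also run on simulated counts with known changes, but the outcome is not reported here and nothing is read from it. The 3 libraries a group are clones, and p-values measure the spread between them. Alternatives were RLE, library totals, DESeq2 1.42.0, limma-voom (limma 3.58.1), no filter, a replicate block, and omission of single libraries. For pairing, the deviations of same-numbered libraries from their group means correlated at 0.33, 0.64 and 0.46 across genes, each over 0.1, so the numbers were taken to pair the libraries in the blocked fit. Deviations within a group cancel out over its 3 libraries, so the likeness of KO2 and WT2 also enters the values of the other pairs. These correlations therefore do not show that same-numbered libraries belong together. No label ties a number to a common culture or day.

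Promoter sequences came from RefSeq tables of GRCm38.p6, 1 start per gene and not always the outermost, and positions from RefSeq gene tables of the same build.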

Additional observations from a re-analysis of the deposited data

How the results depend on the processing

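The set of 112 genes changed little with the scaling (114 genes with TMM or RLE sizes, all 112 among them), and without WT1, WT3, KO1 or KO3 in turn it held 115 to 122 genes. It held 143 genes at a 10-fold limit, 86 at 40-fold, 89 with a minimum of 10 CPM, 154 with 1 CPM and 121 with the Slc, Zfp and H2- symbols kept. With WT2 among the libraries that must be low it held 6, by construction. The median WT2 level stayed between 23.7% and 25.5% of KO2 in the alternatives run, and WT2 lay above the other 4 libraries in 85 to 139 genes, depending on the size of the set. For KO against WT, edgeR called 0 genes with RLE sizes, with library totals, without the filter and without each library in turn. With the replicate number as a block it also called 0, of all genes and of the set. At an unadjusted p under 0.05 there were then 2 of the 42 tested genes of the set and 985 of all 10896. Without the block there were 0 of the 42 and 1030 of all 10896. limma-voom called 0 and DESeq2 218. Without WT2 and KO2, an alternative chosen after seeing the data, edgeR called 0 and DESeq2 340. Of these 340, 5 are in the set (Tbx19, Col27a1, Bhlhe41, Vat1l and Pcdh9), all lower in KO1 and KO3 than in WT1 and WT3, where 1.72% of 11752 genes were called lower. The rule capped the levels in these 4 libraries, so nothing is read from this count. In edgeR all 42 tested genes of the set had a positive log2 fold change over the 6 libraries, but 0 of 42 without KO2. With the replicate block 22 of 42 were positive, and in limma-voom 18 of 42. The rule put KO2 far above KO1, KO3, WT1 and WT3, which favours a positive sign with KO2 in the fit. No share over all genes was taken, and nothing is read from these signs. KO2 and WT2 are 1 library each, so no replicate error can be given for their levels.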
